A study of Mus musculus with 5 samples.

Results

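The genes described here carry glucose through a cell: 36 genes named for their steps in glucose uptake, glycolysis, lactate handling, the pentose phosphate pathway and the entry of pyruvate into mitochondria. They were chosen by function, not by a measured value, though with earlier results of these data known. Of the 36, 35 have a row in the deposited table of 13004 genes, while the enolase gene Eno1 is not analysed here. The RNA came from splenic natural killer (NK) cells of mice, lymphocytes of innate immunity that kill infected and tumour cells. A flow cytometric sort had kept live cells negative for CD3 and positive for NK1.1 and DX5. The study compared 3 control samples from Mycf/f mice (controls 1, 2 and 3) with 2 samples from MycΔ/Δ/Ncr1Cre mice (MycKO 5 and 6), so the question was what NK cells without the transcription factor MYC express. All mice were C57BL/6 and 8 weeks old. In the MycKO mice, Cre recombinase is driven by Ncr1, a gene that NK cells switch on as they mature. The control genotype names a floxed Myc gene and no Cre, so that Cre itself and the loss of Myc differ together and cannot be told apart. The labels do not say that each sample came from a separate mouse, and the p-values below measure only the spread between these samples.

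Glycolysis splits glucose into pyruvate in the cytosol and yields ATP, and pyruvate is then either reduced to lactate and exported or carried into mitochondria and oxidised by the pyruvate dehydrogenase complex. The pentose phosphate pathway branches off at glucose 6-phosphate: its oxidative arm makes NADPH and its non-oxidative arm makes ribose for nucleotides and returns carbon to glycolysis. Resting NK cells have a low rate of glycolysis that rises when cytokines activate them. MYC binds the E-box sequence CACGTG, and in many dividing cells it raises transcription of glycolytic genes such as Ldha, Slc2a1 and Hk2.

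The files give a value for each gene and sample in RPKM, reads scaled to transcript length and library total. Because of that scaling by length, levels of different genes can be set side by side. The reads behind the values summed to between 5451728 and 17610826 per sample over the listed genes, with MycKO 5 the shallowest library. Myc was listed at 13.0, 23.0 and 21.2 RPKM across controls 1 to 3 and 12.5 and 8.70 RPKM across MycKO 5 and 6, with MycKO 5 only just below control 1, and the difference of -0.77 on the log2(RPKM + 1) scale did not pass the test (limma, adjusted p = 0.297). A value for the whole gene cannot show which exons were deleted. Ncr1, which drives the Cre, was listed at 1619, 931 and 1243 RPKM across controls 1 to 3 and 633 and 744 RPKM across MycKO 5 and 6 (-0.84, adjusted p = 0.143), and it passed the test only without control 2 (adjusted p = 0.0265) and in the authors' deposited table (adjusted p = 0.000689). Of 12 NK cell markers, none passed the test with limma and 6 were lower at an unadjusted p under 0.05, against 3.35% of all genes tested. Of the 12, 3 were called lower by limma-voom (0.241% of all genes tested) and 4 were called lower in the authors' deposited table (0.581%). The log2 fold change was negative for 8 of the 12 and positive for 4. Their summed level was 13581 to 15584 in the controls and 10985 to 12853 in the MycKO samples. Gzma alone made up a large part of that sum, at 7251, 6894 and 6584 RPKM across controls 1 to 3 and 4699 and 5620 RPKM across MycKO 5 and 6. Higher levels in MycKO were found for markers of several other cell types of the spleen: 12 of 15 macrophage and monocyte genes, 5 of 8 tested red cell genes, 3 of 8 T cell genes, 2 of 9 neutrophil genes and 1 of 11 B and plasma cell genes passed the test, beside 1.24% of all 11190 genes tested that were called higher. The summed level was 418 to 609.8 in the controls and 1707 to 1885 in the MycKO samples for the macrophage list, 84.1 to 135 in the controls and 242 to 414 in the MycKO samples for the red cell list, 27.4 to 86.4 in the controls and 238 to 589 in the MycKO samples for the neutrophil list, 35.2 to 54.2 in the controls and 136 to 201 in the MycKO samples for the T cell list and 132 to 189 in the controls and 414 to 767 in the MycKO samples for the B and plasma cell list. Mpo and Mcpt8, which mark neutrophil precursors and basophils, were listed at 0 in all 3 controls and above 0 in both MycKO samples. None of 5 platelet genes, 5 basophil and mast cell genes and 12 genes of dividing cells passed with limma or limma-voom. Of the 5 basophil and mast cell genes, 2 were higher at an unadjusted p under 0.05 (9.83% of all genes tested). The authors' deposited table called 1 of the 5 higher (3.09% of all genes tested). The most abundant gene of each list had a log2 fold change of 1.86 (Lyz2, macrophages and monocytes), 0.63 (Car2, red cells), 3.16 (S100a8, neutrophils), 2.53 (Cd3g, T cells), 2.85 (Jchain, B and plasma cells), 0.66 (Ppbp, platelets), 3.54 (Mcpt8, basophils and mast cells) and -0.43 (Gzma, NK cells), of which S100a8, Cd3g and Jchain passed. In bulk RNA, fewer cells of a type and less RNA per cell cannot be told apart.

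Since MYC binds CACGTG, that E-box was searched in the stretch from 250 bases before to 50 bases after each RefSeq start site (GRCm38.p6, the assembly mm10 is based on). CACGTG reads the same on both strands, and no other motif was searched. Windows were found for 34 of the 35 genes, 46 in all. Of these 34 genes, 4 held the motif in at least 1 window (11.8%), against 12.0% of 9021 tested genes with a window and 7.15% of all 32851 windows in the table. The 4 were Ldha, Pfkfb3, Pfkm and Slc16a1. Their windows are printed with the motif in capitals, 5′ to 3′ in the direction of the gene, from chr7:46845554-46845853, plus strand, chr2:11502041-11502340, minus strand, chr15:98092339-98092638, plus strand and chr3:104638414-104638713, plus strand.
Ldha: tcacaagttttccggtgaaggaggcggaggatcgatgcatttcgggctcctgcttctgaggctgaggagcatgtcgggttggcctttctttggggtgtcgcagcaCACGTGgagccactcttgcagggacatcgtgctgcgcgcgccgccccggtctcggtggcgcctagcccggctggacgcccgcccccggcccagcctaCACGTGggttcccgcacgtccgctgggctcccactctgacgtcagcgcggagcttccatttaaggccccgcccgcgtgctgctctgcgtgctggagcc
Pfkfb3: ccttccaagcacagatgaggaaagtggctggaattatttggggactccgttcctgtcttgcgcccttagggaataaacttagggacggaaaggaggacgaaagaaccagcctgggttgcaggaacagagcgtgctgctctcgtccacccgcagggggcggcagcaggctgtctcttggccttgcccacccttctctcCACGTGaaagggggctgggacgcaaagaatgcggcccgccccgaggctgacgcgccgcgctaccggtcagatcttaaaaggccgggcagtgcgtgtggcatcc
Pfkm: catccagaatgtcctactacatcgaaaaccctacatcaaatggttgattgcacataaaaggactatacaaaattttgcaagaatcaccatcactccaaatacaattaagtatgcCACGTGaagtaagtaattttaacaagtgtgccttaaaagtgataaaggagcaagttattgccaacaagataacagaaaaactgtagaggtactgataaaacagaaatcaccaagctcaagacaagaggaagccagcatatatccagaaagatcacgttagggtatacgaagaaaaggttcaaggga
Slc16a1: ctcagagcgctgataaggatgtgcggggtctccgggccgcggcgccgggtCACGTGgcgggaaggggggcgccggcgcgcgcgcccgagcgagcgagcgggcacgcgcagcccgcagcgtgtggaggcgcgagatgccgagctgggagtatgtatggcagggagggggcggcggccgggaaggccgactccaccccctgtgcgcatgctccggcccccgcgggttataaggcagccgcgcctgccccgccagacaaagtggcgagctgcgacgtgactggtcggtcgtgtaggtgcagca

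The Ldha window held 2 copies of CACGTG, whose first bases lie at -145 and -48 from the start site. The single copies began at -53 in Pfkfb3, -136 in Pfkm and -200 in Slc16a1. Ldha and Pfkfb3 each have another start site whose window lacks the motif, and Pfkm has 3 such others, so which window is in use in NK cells was not tested. None of the 4 genes passed the test between the groups, and their median log2 fold change was 0.19, against 0.14 in the 30 genes without the motif. Pfkfb4 and Slc16a3, the genes with the largest differences below, hold no CACGTG in their only windows, chr9:108991652-108991951, plus strand and chr11:120948817-120949116, plus strand.
Pfkfb4: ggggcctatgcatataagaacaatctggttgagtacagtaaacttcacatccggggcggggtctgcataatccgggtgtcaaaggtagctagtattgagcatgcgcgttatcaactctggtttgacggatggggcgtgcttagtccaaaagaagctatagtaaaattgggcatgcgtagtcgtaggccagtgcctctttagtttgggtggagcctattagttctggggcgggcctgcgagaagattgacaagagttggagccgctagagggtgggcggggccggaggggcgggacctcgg
Slc16a3: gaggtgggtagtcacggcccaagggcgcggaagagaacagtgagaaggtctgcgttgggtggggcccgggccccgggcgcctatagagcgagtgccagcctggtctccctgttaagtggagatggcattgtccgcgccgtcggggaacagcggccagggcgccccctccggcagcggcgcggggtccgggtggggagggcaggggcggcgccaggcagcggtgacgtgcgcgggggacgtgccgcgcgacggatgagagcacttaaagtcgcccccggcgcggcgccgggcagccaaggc

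None of the 35 genes passed the test at an adjusted p of 0.05 over all 11190 genes (limma), against 1.34% of all genes tested (1.24% higher and 0.0983% lower). At that share, few calls among 35 genes would be made in any case. With 3 samples against 2, their absence does not show that the groups were alike. At an unadjusted p under 0.05, 6 of the 35 were higher in MycKO and none lower, against 13.2% of all genes (9.83% higher and 3.35% lower): Pfkfb4, Aldoa, Slc16a3, Tkt, Pdk1 and Mpc2. limma-voom on the recovered reads called none of the 35, against 2.09% of all genes (1.85% higher and 0.241% lower in MycKO), and the authors' deposited adjusted p-values called only Pfkfb4, as higher, against 3.67% of all genes (3.09% higher and 0.581% lower). The groups did not overlap in 9 genes, with MycKO above every control in 8 (background 18.8%) and below in 1 (background 10.4%, or 29.1% in either direction). The median log2 fold change was 0.09 over the 35 genes and 0.05 over all genes tested, and 23 genes had a positive value, a number that was 19 with median-of-ratios scaling, 21 with upper-quartile scaling and 18 with the authors' deposited log2 ratios. It was 28 of 35 without control 2 and 14 of the 33 genes then tested without MycKO 5. The 95% interval of the difference lay within 1 log2 unit of 0 for 24 of the 35 genes and within 0.5 for 11, which bounds the changes that these samples leave possible.

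**Figure D1:**
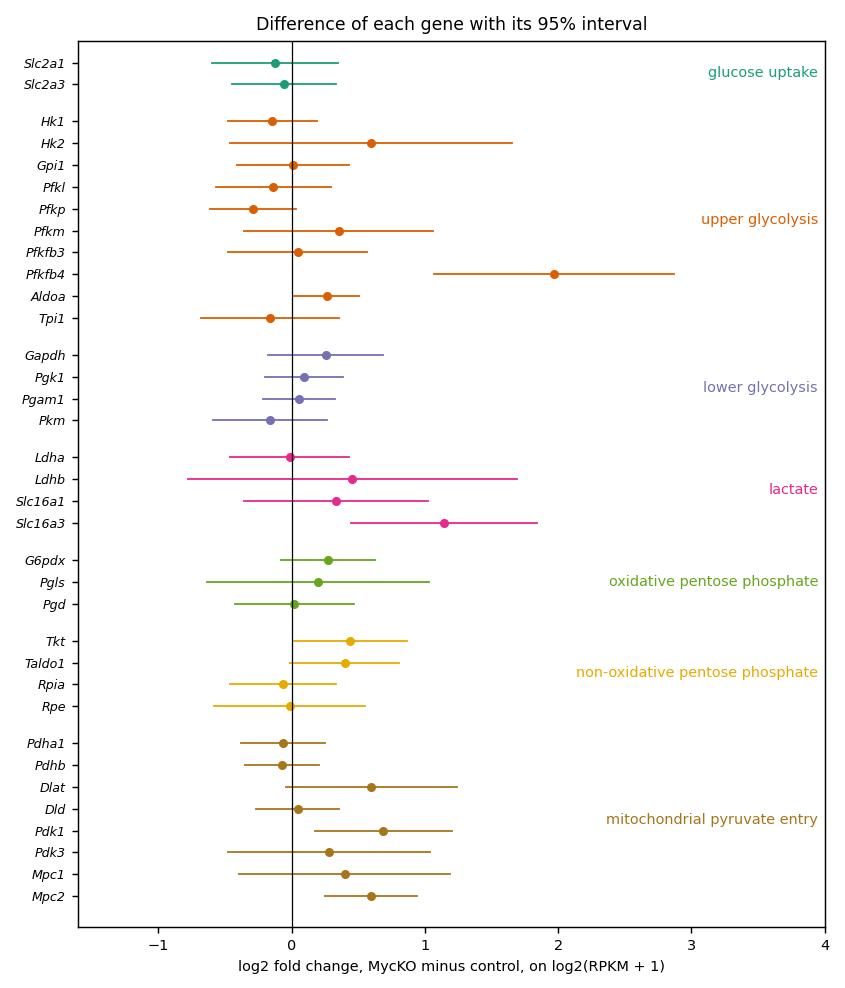
Difference between MycKO and control for each of the 35 genes on the log2(RPKM + 1) scale (x axis, points), with the 95% interval from limma (lines), coloured by step. Most intervals span 0, and Pfkfb4 at 1.97 stands farthest to the right. The points of Gpi1, Pfkfb3, Pgd and Dld lie within 0.05 of 0 and fall on the other side of 0 with median-of-ratios scaling, as do Gpi1 and Pgd with upper-quartile scaling.

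Levels covered a wide range. In the controls, 27 of the 35 genes averaged at least 10 RPKM and 11 averaged at least 50 RPKM. Pkm (159 ± 33.1 RPKM (SD, n = 3)) and Ldha (157 ± 34.8 RPKM (SD, n = 3)), which make pyruvate and turn it into lactate, were the highest and did not differ from each other beyond their spread. Taldo1 (114 ± 16.6 RPKM (SD, n = 3)) and Aldoa (102 ± 3.61 RPKM (SD, n = 3)) followed. Hk2 (1.40 ± 0.652 RPKM (SD, n = 3)), Ldhb (0.760 ± 0.764 RPKM (SD, n = 3)) and Pfkfb4 (0.626 ± 0.217 RPKM (SD, n = 3)) were the only ones under 2 RPKM, and these 3 also overlap within their spread.

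Glucose enters through the carriers GLUT1 (Slc2a1) and GLUT3 (Slc2a3). Slc2a1 was at 23.3, 19.6 and 24.0 RPKM across controls 1 to 3 and 16.6 and 24.7 RPKM across MycKO 5 and 6, and the groups overlapped, with the lowest and the highest value both in MycKO samples. Slc2a3 was at 35.2, 25.7 and 27.5 RPKM across controls 1 to 3 and 27.8 and 28.3 RPKM across MycKO 5 and 6, again with overlap, and control 1 was the highest. The differences were -0.13 (95% interval -0.60 to 0.35, limma adjusted p = 0.891) and -0.06 (-0.45 to 0.33, adjusted p = 0.945). Summed, the carriers reached 58.5, 45.3 and 51.5 across controls 1 to 3 and 44.4 and 53.0 across MycKO 5 and 6.

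Hexokinase traps glucose in the cell as glucose 6-phosphate. Hk1, the form of most tissues, was at 39.8, 39.2 and 34.4 RPKM across controls 1 to 3 and 37.5 and 30.9 RPKM across MycKO 5 and 6, a difference of -0.14 (limma adjusted p = 0.788). Hk2, the form that MYC and growth signals raise in many cells, was at 1.51, 1.99 and 0.698 RPKM across controls 1 to 3 and 4.12 and 1.43 RPKM across MycKO 5 and 6. Hk2 was highest in MycKO 5, while MycKO 6 lay among the controls, and the difference of 0.60 had a 95% interval of -0.46 to 1.65 (adjusted p = 0.690). Its values rest on 125, 193 and 55 reads in the controls and 124 and 105 in the MycKO samples. Hk1 shares its locus with the opposite-strand gene Hk1os, and 13 of the 34 genes with a unique annotated position (GENCODE vM21, mm10) overlap a gene on the opposite strand. The libraries were strand-specific, but no source used here states whether strand was used in counting. Whether the reads of such pairs were kept apart is therefore not known.

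Glucose 6-phosphate isomerase, encoded by Gpi1, makes fructose 6-phosphate. Gpi1 was at 66.0, 89.9 and 66.1 RPKM across controls 1 to 3 and 83.7 and 64.9 RPKM across MycKO 5 and 6, with control 2 and MycKO 5 both well above the other 3 samples. Its difference was 0.01 (-0.41 to 0.43), and the sign turned under other scalings.

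Phosphofructokinase commits sugar to glycolysis, and its 3 forms are named for platelet, liver and muscle. Pfkp, at chr13:6579768-6648777 on the minus strand, was the main form at 58.0, 74.4 and 61.4 RPKM across controls 1 to 3 and 54.2 and 50.5 RPKM across MycKO 5 and 6. Both MycKO samples lay below every control, which no other gene of the 35 showed, and the group means were 64.6 ± 8.66 RPKM (SD, n = 3) and 52.4 ± 2.64 RPKM (SD, n = 2). The difference of -0.29 (95% interval -0.62 to 0.03) did not pass (limma, adjusted p = 0.441). Pfkl was at 17.3, 14.5 and 13.3 RPKM across controls 1 to 3 and 14.0 and 13.0 RPKM across MycKO 5 and 6 (-0.14, adjusted p = 0.856), with overlap. Pfkm was at 3.70, 3.83 and 3.80 RPKM across controls 1 to 3 and 6.76 and 3.79 RPKM across MycKO 5 and 6. MycKO 5 alone was high there: the 3 controls and MycKO 6 lay within 0.2 RPKM of each other, and the difference of 0.35 (adjusted p = 0.727) fell to 0.00 without MycKO 5.

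The bifunctional PFKFB enzymes make and break fructose 2,6-bisphosphate, the strongest activator of phosphofructokinase. Pfkfb3, whose form favours synthesis, was at 10.1, 12.3 and 8.39 RPKM across controls 1 to 3 and 11.2 and 9.87 RPKM across MycKO 5 and 6 (0.04, limma adjusted p = 0.971), and the groups overlapped. Pfkfb4, at chr9:108991778-109032228 on the plus strand, was at 0.435, 0.861 and 0.583 RPKM across controls 1 to 3 and 7.52 and 3.70 RPKM across MycKO 5 and 6. Every control was under 1 RPKM and both MycKO samples were above 3, which made it the gene with the largest difference of the 35. The means of 0.626 ± 0.217 RPKM (SD, n = 3) and 5.61 ± 2.70 RPKM (SD, n = 2) differ 8.96-fold and rest on 22, 51 and 28 reads in the controls and 138 and 166 in the MycKO samples. On the log2(RPKM + 1) scale, which understates the change of low genes, the difference was 1.97 (SE 0.39, 95% interval 1.07 to 2.87). It narrowly missed the threshold (limma, adjusted p = 0.0637). limma-voom gave 2.84 with an adjusted p of 0.101, and the authors' deposited table gave 3.09 with an adjusted p of 0.00140. With a filter on library-scaled reads in place of RPKM it passed (adjusted p = 0.0334). Under either filter, Pfkfb4 was kept only through its MycKO samples, and without either of them it was not tested. The macrophage, neutrophil and red cell markers given above moved with it, and their part in its difference was not tested.

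Aldolase and triose phosphate isomerase close the upper part of the pathway. Aldoa was at 105, 98.4 and 103 RPKM across controls 1 to 3 and 117 and 129 RPKM across MycKO 5 and 6, so that both MycKO samples lay above the tight range of the controls. The difference was 0.26 (SE 0.10, limma adjusted p = 0.339). Tpi1 was at 60.7, 105 and 70.9 RPKM across controls 1 to 3 and 74.4 and 62.8 RPKM across MycKO 5 and 6 (-0.16, adjusted p = 0.859), and control 2 was the highest sample. Over the 10 genes of upper glycolysis, the summed level was 363, 440.1 and 363 across controls 1 to 3 and 411 and 369.6 across MycKO 5 and 6, with the highest sum in a control.

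The lower part of glycolysis turns triose phosphate into pyruvate and regains ATP. Gapdh, which reduces NAD+ in the step, was at 97.0, 90.7 and 74.7 RPKM across controls 1 to 3 and 125 and 86.2 RPKM across MycKO 5 and 6. MycKO 5 was the highest and control 3 the lowest, and the difference was 0.26 (95% interval -0.18 to 0.69, limma adjusted p = 0.673). The table also lists 4 Gapdh pseudogenes, of which the highest averaged 2.22 RPKM, so a few reads could be split between the copies. Pgk1, the first ATP-forming enzyme, was at 92.2, 82.6 and 75.9 RPKM across controls 1 to 3 and 84.2 and 93.7 RPKM across MycKO 5 and 6. Pgam1, which moves the phosphate on phosphoglycerate, was at 77.6, 74.5 and 81.9 RPKM across controls 1 to 3 and 87.2 and 75.1 RPKM across MycKO 5 and 6. Both genes overlapped between the groups, with differences of 0.09 and 0.05 (limma adjusted p = 0.858 and 0.924).

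Pyruvate kinase ends glycolysis with the second ATP-forming reaction. Pkm was at 155, 195 and 129 RPKM across controls 1 to 3 and 156 and 126 RPKM across MycKO 5 and 6, and the difference was -0.16 (-0.59 to 0.27, limma adjusted p = 0.821). Control 2 was the highest sample and MycKO 6 the lowest, with the other 3 between them. Its splice forms PKM1 and PKM2, whose balance changes with growth in many cells, are counted together in a table per gene and were not separated. The 4 measured genes of lower glycolysis summed to 421, 442 and 361 across controls 1 to 3 and 453 and 381 across MycKO 5 and 6.

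**Figure D2:**
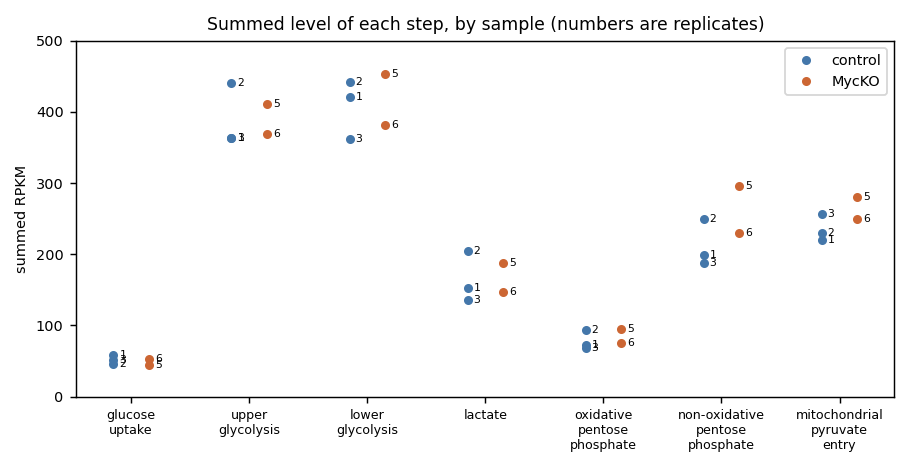
Summed RPKM (y axis) of the measured genes of each step (x axis), with 1 point per sample numbered by replicate, controls in blue and MycKO in orange. The groups overlap in all 7 steps, and MycKO 5 lies above MycKO 6 in every step but glucose uptake.

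Lactate dehydrogenase turns pyruvate into lactate and restores NAD+. Ldha, at chr7:46841475-46855627 on the plus strand and the gene with 2 E-boxes printed above, was at 146, 196 and 129 RPKM across controls 1 to 3 and 172 and 136 RPKM across MycKO 5 and 6. The 2 MycKO values lay inside the range of the controls, and the difference of -0.01 had a 95% interval of -0.46 to 0.43 (limma adjusted p = 0.991). Ldhb, the form that favours the return of lactate to pyruvate, was at 1.53, 0 and 0.751 RPKM across controls 1 to 3 and 2.11 and 0.632 RPKM across MycKO 5 and 6. It had 30, 0 and 14 reads in the controls and 15 and 11 in the MycKO samples, and 3 reads in control 2 would have given 0.131 RPKM. At this depth no difference in Ldhb was detectable (0.46, -0.78 to 1.69, limma adjusted p = 0.824).

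Lactate leaves the cell through monocarboxylate transporters. Slc16a1, which encodes MCT1 and holds 1 E-box in its window, was at 3.79, 5.95 and 4.14 RPKM across controls 1 to 3 and 7.20 and 4.97 RPKM across MycKO 5 and 6 (0.33, limma adjusted p = 0.742). The groups overlapped because control 2 lay above MycKO 6. Slc16a3 encodes MCT4, the export carrier of highly glycolytic cells, and lies at chr11:120948480-120960868 on the plus strand. Slc16a3 was at 1.55, 2.36 and 2.39 RPKM across controls 1 to 3 and 5.40 and 6.16 RPKM across MycKO 5 and 6. Both MycKO samples were more than 2 times the highest control, and the means were 2.10 ± 0.477 RPKM (SD, n = 3) and 5.78 ± 0.537 RPKM (SD, n = 2), a ratio of 2.76. The log2 difference was 1.14 (SE 0.30, 95% interval 0.44 to 1.84) and did not pass over all genes (limma, adjusted p = 0.144). limma-voom gave 1.52 with an adjusted p of 0.170, and the authors' deposited table gave 1.40 with an adjusted p of 0.316. The counts behind it were 60, 107 and 88 reads in the controls and 76 and 212 in the MycKO samples. The macrophage and monocyte list, 12 of 15 genes higher, moved with the same 2 samples, and its part in the Slc16a3 values was not tested.

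The oxidative arm of the pentose phosphate pathway starts with glucose 6-phosphate dehydrogenase, which makes NADPH. G6pdx was at 23.1, 20.1 and 19.4 RPKM across controls 1 to 3 and 26.0 and 24.7 RPKM across MycKO 5 and 6, so that both MycKO samples lay above all controls by a small margin. The difference was 0.27 (95% interval -0.08 to 0.62, limma adjusted p = 0.532). Pgls, the lactonase, was at 9.51, 23.6 and 12.3 RPKM across controls 1 to 3 and 19.2 and 13.8 RPKM across MycKO 5 and 6, and its controls spread more than the groups differed (0.20, adjusted p = 0.906). Pgd, the second NADPH-making enzyme, was at 39.8, 50.6 and 37.1 RPKM across controls 1 to 3 and 50.3 and 36.3 RPKM across MycKO 5 and 6, with control 2 and MycKO 5 level and the other 3 samples lower. Its difference of 0.02 turned sign under other scalings.

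The non-oxidative arm moves carbon between ribose and glycolysis. Transketolase (Tkt, chr14:30548359-30574720, plus strand) was at 43.3, 48.9 and 35.6 RPKM across controls 1 to 3 and 66.5 and 49.7 RPKM across MycKO 5 and 6. The groups did not overlap, but MycKO 6 exceeded control 2 by under 1 RPKM, and the difference was 0.44 (SE 0.18, limma adjusted p = 0.368). Transaldolase (Taldo1) was at 103, 133 and 106 RPKM across controls 1 to 3 and 176 and 127 RPKM across MycKO 5 and 6. MycKO 5 was the highest, MycKO 6 lay below control 2, and the difference was 0.40 (-0.01 to 0.81, limma adjusted p = 0.393). Rpia and Rpe, the isomerase and epimerase of ribulose 5-phosphate, overlapped between the groups with differences of -0.06 and -0.02 (adjusted p = 0.939 and 0.992). Rpia was at 36.7, 39.5 and 28.3 RPKM across controls 1 to 3 and 31.6 and 34.3 RPKM across MycKO 5 and 6. Rpe was at 16.5, 28.1 and 17.8 RPKM across controls 1 to 3 and 22.0 and 18.3 RPKM across MycKO 5 and 6. Without MycKO 5, the differences of Tkt and Taldo1 were 0.23 and 0.16. Summed over the 4 genes, the arm was at 199, 249.6 and 188 across controls 1 to 3 and 296 and 229 across MycKO 5 and 6, and the oxidative arm at 72.4, 94.2 and 68.8 across controls 1 to 3 and 95.5 and 74.8 across MycKO 5 and 6.

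Pyruvate crosses the inner mitochondrial membrane through a carrier made of MPC1 and MPC2. Mpc2, at chr1:165460637-165481214 on the plus strand, was at 25.7, 21.6 and 21.0 RPKM across controls 1 to 3 and 33.9 and 35.6 RPKM across MycKO 5 and 6. Both MycKO samples were above 33 RPKM and every control was below 26, with means of 22.8 ± 2.59 RPKM (SD, n = 3) and 34.8 ± 1.21 RPKM (SD, n = 2). The difference was 0.59 (SE 0.15, 95% interval 0.25 to 0.94), with a limma adjusted p of 0.127. Its partner Mpc1 was at 23.0, 25.2 and 53.5 RPKM across controls 1 to 3 and 46.9 and 37.2 RPKM across MycKO 5 and 6. Control 3 was the highest of all 5 samples for Mpc1, so the groups overlapped (0.40, adjusted p = 0.725). The partners therefore did not share one pattern over the controls.

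The pyruvate dehydrogenase complex turns pyruvate into acetyl-CoA, and its E1 subunits are encoded by Pdha1 and Pdhb, its E2 core by Dlat and its E3 by Dld. Pdha1 was at 35.2, 40.6 and 34.4 RPKM across controls 1 to 3 and 36.5 and 33.6 RPKM across MycKO 5 and 6. Pdhb was at 64.1, 72.7 and 75.5 RPKM across controls 1 to 3 and 65.0 and 68.9 RPKM across MycKO 5 and 6. Dld, whose product also serves other dehydrogenases, was at 42.6, 42.9 and 44.1 RPKM across controls 1 to 3 and 49.5 and 40.1 RPKM across MycKO 5 and 6. These 3 genes were flat, with differences of -0.06, -0.08 and 0.05 and 95% intervals within 0.4 log2 units of 0 (limma adjusted p = 0.922, 0.886 and 0.945). Dlat was at 10.3, 6.42 and 11.3 RPKM across controls 1 to 3 and 16.4 and 12.5 RPKM across MycKO 5 and 6, lowest in control 2, and MycKO lay above every control. The difference of 0.60 (SE 0.27) did not pass (limma, adjusted p = 0.417).

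Kinases of the PDK family switch the complex off by phosphorylating E1. Pdk1, a target of the hypoxia factor HIF-1 (chr2:71873224-71903858, plus strand), was at 6.32, 5.72 and 5.67 RPKM across controls 1 to 3 and 9.30 and 11.0 RPKM across MycKO 5 and 6. The controls lay within 0.7 RPKM of each other and both MycKO samples were well above them, with means of 5.90 ± 0.361 RPKM (SD, n = 3) and 10.1 ± 1.18 RPKM (SD, n = 2). The difference was 0.69 (SE 0.22, 95% interval 0.17 to 1.20, limma adjusted p = 0.228), and limma-voom gave 0.83 with an adjusted p of 0.0898. Pdk3 was at 12.1, 15.0 and 11.1 RPKM across controls 1 to 3 and 23.3 and 10.3 RPKM across MycKO 5 and 6. MycKO 5 and MycKO 6 were its highest and lowest samples, which leaves the difference of 0.28 with an interval of -0.48 to 1.04 (adjusted p = 0.825). Summed over its 8 genes, the pyruvate step was at 219, 230.1 and 257 across controls 1 to 3 and 281 and 249 across MycKO 5 and 6.

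**Figure D3:**
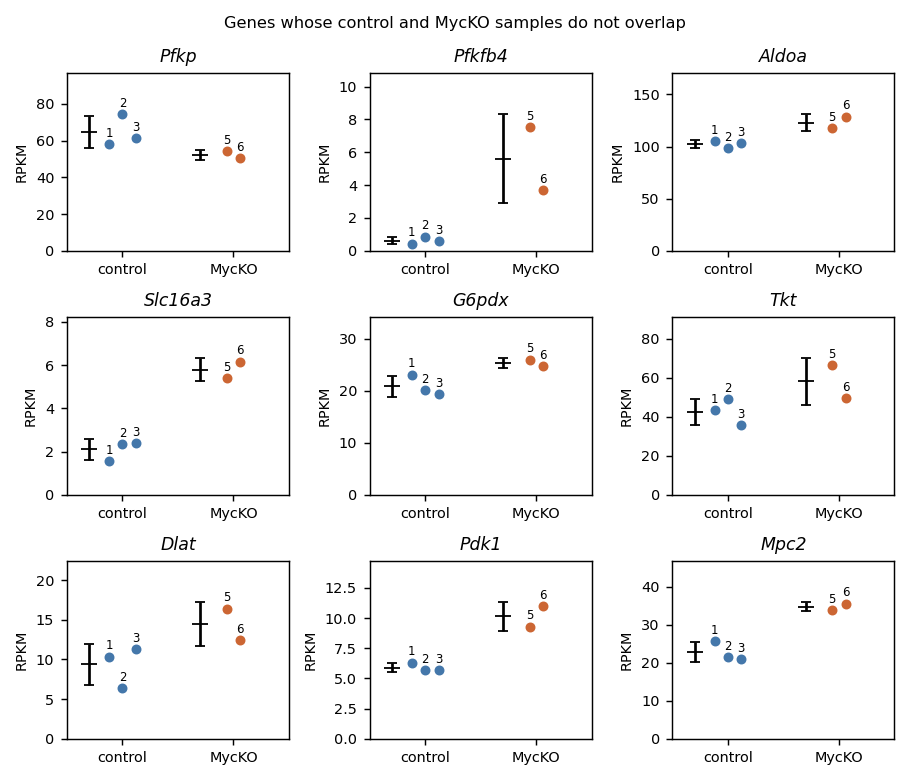
RPKM per sample (y axis, each panel with its own scale from 0) of the 9 genes whose groups do not overlap, with points numbered by replicate and the mean ± SD of each group beside them. Pfkp is lower in MycKO and the other 8 are higher, with the widest gaps in Pfkfb4, Slc16a3 and Pdk1, and none passed the test over all genes with limma.

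Which isoform a step used was compared as the share of 1 gene in the summed RPKM of its family, for 13 shares. With 3 samples against 2, the exact two-sided permutation test cannot go below 0.1, and the lowest p adjusted over the 13 shares was 0.26, so no share passed. The MycKO shares lay above every control in 4 of the 13 and below in 2. For the levels of all genes tested, not shares, MycKO lay above every control in 18.8% and below in 10.4%. Shares within a family depend on each other, so these counts are not of separate events. Hk1 was the main hexokinase in every sample, at 96.4%, 95.2% and 98.0% across controls 1 to 3 and 90.1% and 95.6% across MycKO 5 and 6 of Hk1 and Hk2 together. When Hk3, a myeloid hexokinase, was counted in, its share was 5.62%, 4.93% and 11.8% across controls 1 to 3 and 15.4% and 22.0% across MycKO 5 and 6 (exact p = 0.1). Hk3 is expressed in macrophages and neutrophils, whose markers were higher in the same samples, and their part in this share was not tested.

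Pfkp kept the largest share of phosphofructokinase at 73.4%, 80.3% and 78.2% across controls 1 to 3 and 72.3% and 75.1% across MycKO 5 and 6 (exact p = 0.3). The Pfkm share was 4.68%, 4.13% and 4.84% across controls 1 to 3 and 9.01% and 5.63% across MycKO 5 and 6 (exact p = 0.1), small everywhere and highest in MycKO 5. Within the PFKFB family, Pfkfb3 held 69.7%, 83.1% and 61.0% across controls 1 to 3 and 51.9% and 54.5% across MycKO 5 and 6 (exact p = 0.2). Pfkfb3 was the largest part in all 5 samples but below every control in both MycKO samples, while Pfkfb4, a share chosen after its values were seen and not tested, went from 2.99%, 5.81% and 4.24% across controls 1 to 3 and 34.9% and 20.4% across MycKO 5 and 6.

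Of the lactate carriers, Slc16a3 made up 29.0%, 28.4% and 36.6% across controls 1 to 3 and 42.9% and 55.3% across MycKO 5 and 6 (exact p = 0.1). MCT1 was thus the larger share in every control and in MycKO 5, and MCT4 in MycKO 6. Pdk1 held 23.0%, 16.3% and 23.0% across controls 1 to 3 and 24.4% and 37.1% across MycKO 5 and 6 of the summed Pdk1, Pdk2 and Pdk3 (exact p = 0.1), with MycKO 5 only just above control 1. Pdk2 held 32.8%, 40.9% and 31.8% across controls 1 to 3 and 14.5% and 28.1% across MycKO 5 and 6 (exact p = 0.1), below every control in both MycKO samples. The Pdk3 share was 44.2%, 42.8% and 45.2% across controls 1 to 3 and 61.1% and 34.8% across MycKO 5 and 6 (exact p = 0.7), so the MycKO samples lay on opposite sides of the controls. Shares of Slc2a1 among the glucose carriers, of Hk2, Pfkl, Aldoc and Ldhb overlapped between the groups, and Ldhb was at or below 1.21% of lactate dehydrogenase in every sample.

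**Figure D4:**
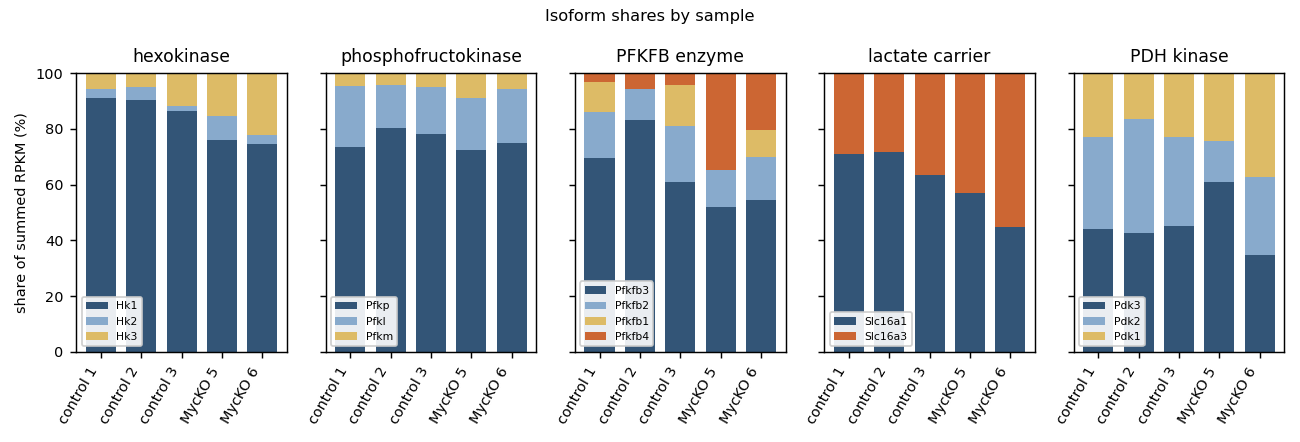
Share of each isoform in the summed RPKM of its family (y axis, percent), as 1 stacked bar per sample, for hexokinases, phosphofructokinases, PFKFB enzymes, lactate carriers and pyruvate dehydrogenase (PDH) kinases. Hk3, Pfkfb4 and Slc16a3 take larger shares in both MycKO samples than in any control, and the exact permutation test of a share cannot go below p = 0.1 with 3 samples against 2.

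Other genes of the pathway were taken from 6 lists of 78 genes, of which 53 are in the table and 49 were tested. None passed with limma, against 1.34% of all genes tested. At an unadjusted p under 0.05, 7 were higher in MycKO (background 9.83%) and none lower (background 3.35%). The median log2 fold change was 0.08. limma-voom called 1 of them, Emb (background 2.09%). The authors' deposited table called 2, Emb and Pklr (background 3.67%). Both counts are near those shares. Among 8 tested transporters and their partners, Emb encodes embigin, which escorts monocarboxylate carriers to the cell surface. Emb was at 68.5, 42.5 and 58.3 RPKM across controls 1 to 3 and 95.9 and 107 RPKM across MycKO 5 and 6. Both MycKO samples were well above the controls (0.86, limma adjusted p = 0.0985), and limma-voom gave an adjusted p of 0.0228. Bsg encodes basigin, the partner of MCT1 and MCT4. Bsg was at 89.3, 75.4 and 77.3 RPKM across controls 1 to 3 and 111 and 107 RPKM across MycKO 5 and 6, again without overlap (0.44, adjusted p = 0.153).

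Of the 9 other glycolytic enzymes tested, Pklr and Hk3 had the smallest p. Pklr, the pyruvate kinase of red cells and liver, was at 0.0948, 0.729 and 0 RPKM across controls 1 to 3 and 9.16 and 2.89 RPKM across MycKO 5 and 6 (2.34, limma adjusted p = 0.0851). Like Pfkfb4, it was under 1 RPKM in every control and was kept by the filter only through its MycKO samples. In MycKO 5 and 6 Pklr moved with Car1, a carbonic anhydrase of red cell precursors chosen after its values were seen. Car1 was at 1.27, 2.52 and 3.05 RPKM across controls 1 to 3 and 166 and 69.1 RPKM across MycKO 5 and 6. Of the 8 tested red cell genes, 6 were higher in MycKO 5 than in MycKO 6, as Pklr was. Alas2 and Epor went the other way, with Epor at 5.11 and 5.82 RPKM across MycKO 5 and 6. Slc4a1 was nearly level at 8.98 and 8.68 RPKM, and Car2, the most abundant of the list, overlapped between the groups. Hk3 was at 2.46, 2.13 and 4.69 RPKM across controls 1 to 3 and 7.59 and 9.13 RPKM across MycKO 5 and 6 (1.24, adjusted p = 0.158). The part of red cell and myeloid RNA in the Pklr and Hk3 values was not tested.

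Of 10 regulators of the pathway tested, none had an unadjusted p under 0.05 (13.2% of all genes tested). None was called by limma-voom (background 2.09%) or the authors' deposited table (background 3.67%). At those shares, few calls among 10 genes would be made in any case, so their absence does not show that the groups were alike. The groups did not overlap in 1 regulator higher in MycKO (background 18.8%) and 1 lower (background 10.4%). The smallest p belonged to Arrdc4 (0.52, 95% interval -0.251 to 1.299, limma adjusted p = 0.609), an arrestin that restrains glucose uptake. Arnt, the partner of HIF-1α, followed (-0.19, adjusted p = 0.703). Txnip, a sensor of glucose that also restrains uptake, was the most abundant regulator at 258, 257 and 261 RPKM across controls 1 to 3 and 250.3 and 282 RPKM across MycKO 5 and 6. In gluconeogenesis and glycogen use, 9 genes were tested, led by the liver-type glycogen phosphorylase Pygl at 6.55, 4.39 and 2.65 RPKM across controls 1 to 3 and 11.2 and 8.29 RPKM across MycKO 5 and 6 (1.01, adjusted p = 0.268) and by G6pc3 (0.39, adjusted p = 0.622). Prps1 (0.35) and Prps2 (-0.20), which make the nucleotide precursor PRPP from ribose 5-phosphate, led the 5 other pentose phosphate genes, with limma adjusted p-values of 0.444 and 0.654. Pdk2 (-0.50) and the lipoyl transferase gene Lipt1 (-0.56) led the 8 further genes of pyruvate dehydrogenase control, with adjusted p-values of 0.582 and 0.758.

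Samples of the same group differed in these genes. Control 2 was the highest control in 18 of the 35, against 37.0% of all genes tested, and MycKO 5 was above MycKO 6 in 26, against 49.9%. Both held in 17 of the 35, against 21.5%. Control 2 lay a median of 0.19 log2 units above the mean of controls 1 and 3, and MycKO 5 lay 0.27 above MycKO 6, while the medians over all genes tested were 0.00 for both. Gpi1, Tpi1, Pkm, Ldha, Pgd and Rpe were among the genes with both. As a description, the deviations of control 2 and of MycKO 5 had a Spearman rho of 0.36 and a Pearson r of 0.15 across the 35 genes, and 0.17 and 0.24 across all genes. Genes of 1 sample share their library and are not independent.

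Genes of dividing cells varied with the same samples. Their summed level was 40.7, 216 and 42.3 across controls 1 to 3 and 163 and 76.0 across MycKO 5 and 6, and all 12 were highest in control 2 among the controls and higher in MycKO 5 than in MycKO 6. Top2a, the topoisomerase of dividing cells and the most abundant of the 12, was at 11.1, 58.9 and 11.5 RPKM across controls 1 to 3 and 36.9 and 18.8 RPKM across MycKO 5 and 6. For Ldha, the highest control and the higher MycKO sample were likewise control 2 at 196 RPKM and MycKO 5 at 172 RPKM. The part of dividing cells in the level of the glycolytic genes was not tested. Without control 2 the median log2 fold change over the 35 genes was 0.17, and without MycKO 5 it was -0.03 over the 33 genes then tested, so its sign rested on that sample.

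**Figure D5:**
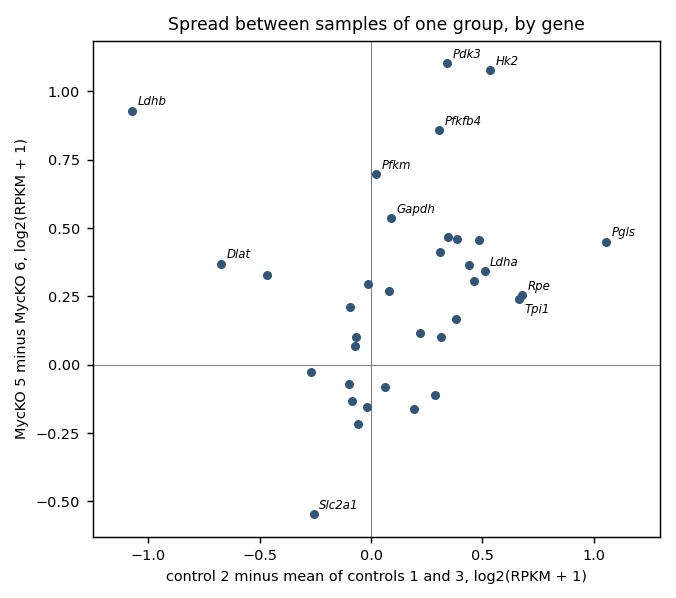
Spread between samples of 1 group for each of the 35 genes: control 2 minus the mean of controls 1 and 3 (x axis) against MycKO 5 minus MycKO 6 (y axis), both in log2(RPKM + 1). More genes lie above than below 0 on the y axis (26 of 35), and Slc2a1 and Ldhb stand apart from the upper right group.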

How the data were processed

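Values of 5 samples of sorted splenic NK cells were analysed. Libraries were strand-specific (dUTP) and read from 1 end on a HiSeq 1000, per the labels' protocols. TopHat, edgeR and mm10 stand in the submitters' processing notes, with no role or version. Annotation and counting method: not given in the sources used here. The deposited table holds, per the file headers, RPKM per sample, the authors' mean normalized signal per group, their ratio (fold change), its log2 value, and their adjusted and unadjusted p-value. No header names the authors' test.

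RPKM was analysed as log2(RPKM + 1) for 11190 of 13004 genes, those reaching 1 RPKM in 2 or more samples. limma 3.58.1 in R 4.3.3 compared the groups with a variance trend, two-sided, with Benjamini-Hochberg adjustment over all genes tested and a threshold of 0.05. Fold changes are MycKO minus control. The threshold for "passed" is this one unless another test is named. Reads were recovered from RPKM and the group means, and 100% of values were whole to within 0.01 read. Recovered totals were 15050801, 17610826 and 14290690 reads for controls 1 to 3 and 5451728 and 13337084 for MycKO 5 and 6. The reads gave depth and limma-voom as another test. Every pair of samples differed by more than counting noise (chi-square of at least 17.27 per degree of freedom). Isoform shares were tested with an exact permutation test over the 10 splits of 3 against 2 samples. The fit was tested on simulated data. Promoter windows are from RefSeq (GRCm38.p6) and positions from GENCODE vM21. Figures were drawn with matplotlib 3.10.9.

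The genes and all lists were chosen with earlier results of these data known. Named are all members, Myc and Ncr1, the 2 genes of smallest p in each list of other pathway genes, the most abundant gene of each marker list, and genes chosen after their values were seen (Txnip, Car1, Mpo). Alternatives were no filter, at least 5 library-scaled reads (CPM) in 2 samples, log2(RPKM + 0.1), median-of-ratios and upper-quartile scaling, no variance trend, limma-voom, the authors' deposited adjusted p-values, and leaving out each sample.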

Additional observations from a re-analysis of the deposited data

How the results depend on the processing

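No paired analysis was possible because the control replicates are numbered 1 to 3 and the MycKO replicates 5 and 6, so the groups share no number. Of the 35 genes, none passed in limma or limma-voom under any alternative except Pfkfb4, alone (1 gene) with the filter on library-scaled reads and with the authors' deposited adjusted p-values. Of the other pathway genes, 2 passed with the authors' deposited adjusted p-values and 1 with limma-voom, and none under the remaining alternatives. Over all genes, 150 passed, against 442 with the authors' deposited adjusted p-values, 234 with limma-voom, 80 with a pseudocount of 0.1, and 34 to 217 when a sample was left out (34 without MycKO 5, 54 without MycKO 6, 39 without control 1, 217 without control 2 and 35 without control 3). Leaving out a MycKO sample leaves 1, which is then assumed to vary like the controls. The median over the 35 genes ranged from 0.03 to 0.09 under the alternatives that kept all samples, and from -0.03 without MycKO 5 to 0.19 without MycKO 6.

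Over 13 settings, 20 of the 35 genes kept the sign of the log2 fold change wherever they were tested, and of these Pfkfb4 and Ldhb were not tested in every setting. With the authors' deposited log2 ratios it turned for Gpi1 (-0.0562), Pfkfb3 (-0.0273), Pgam1 (-0.00455), Pgd (-0.0395), Dld (-0.0104) and the marker Top2a (-0.0217). With limma-voom it turned for Gpi1 (-0.0458), Pgd (-0.0724) and Dld (-0.00240). With median-of-ratios scaling it turned for Gpi1 (-0.0439), Pfkfb3 (-0.00457), Pgd (-0.0339) and Dld (-0.00759), and with upper-quartile scaling for Gpi1 (-0.0319) and Pgd (-0.0220). When each sample was left out in turn, values ran from -0.40 to 0.15 for Slc2a1, from -0.15 to 0.0740 for Slc2a3, from -0.17 to 0.19 for Gpi1, from -0.0797 to 0.17 for Pfkfb3, from -0.33 to 0.0590 for Tpi1, from -0.0130 to 0.52 for Gapdh, from -0.0517 to 0.16 for Pgam1, from -0.19 to 0.16 for Ldha, from -0.0624 to 0.55 for Pgls, from -0.21 to 0.25 for Pgd, from -0.20 to 0.0313 for Rpia, from -0.16 to 0.21 for Rpe, from -0.12 to 0.00807 for Pdha1, from -0.10 to 0.19 for Dld, from -0.27 to 0.83 for Pdk3 and from -0.0745 to 1.15 for Top2a. The cause of these turns was not tested. Of 79 alternative values of the isoform shares, 71 stayed within the replicate spread and 7 turned sign. The share of Eno1 and any block fit were not run.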
